A study of Mus musculus with 10 samples.

Results

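Sphingosine-1-phosphate (S1P) is a signalling lipid, and 10 genes that make it, remove it, export it or receive it were followed in the cochlea of newborn mice. The 10 genes are Asah1, Sphk1, Sphk2, Sgpp1, Sgpp2, Sgpl1, Spns2, S1pr1, S1pr2 and S1pr3, out of 54532 genes in the deposited tables. Sgpp2 was chosen because it was lower in the libraries of one genotype, Spns2 and S1pr2 because hearing requires them, and the other members because they complete the pathway. All 10 were found by symbol and all passed the filter on low counts, with at least 363 counts in every library. The values of Sgpp2 between genotypes are therefore a description and carry no test. The other 9 members were chosen by function, with earlier results of these data known.

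The series measured polyadenylated RNA in cochlear soft tissue of female mice on postnatal day 1, with the left and right cochlea of an animal combined into 1 library. The control group holds 5 animals with floxed Esrrg alleles (Esrrgfl/fl), that is, with loxP sites on both copies of the gene for estrogen-related receptor gamma. The other group holds 5 animals with the same floxed alleles and Sox10-Cre in addition (Esrrgfl/fl;Sox10-Cre), titled cKO for conditional knockout. The Cre enzyme cuts out the DNA that loxP sites flank. Sox10 regulatory sequence drives it in cells that include the otic epithelium, glia and melanocytes. No group carries Cre without the floxed alleles, so the presence of Cre and the loss of Esrrg cannot be told apart. The whole tissue was sequenced, so fewer cells of a type and less RNA per cell cannot be told apart either.

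Library totals lay between 33487089 and 41779836 counts. Control 2 stood apart, with a score of -29.0 on principal component 1 where the other 9 libraries scored -4.11 to 17.9, and values without it are given for members that it moves most. Its FPKM values summed to 335389 over all genes, where those of the other controls summed to 276124 to 286800. Summed FPKM of marker lists did not all run high in that library. The mesenchyme list had its highest sum there, at 4088, and the list of pericyte and vascular smooth muscle genes its lowest, at 92.2. The mesenchyme sum rests largely on 1 gene, Otor, with 2401 FPKM in the mean over libraries. Esrrg itself went against the label. Its CPM (counts scaled to 1000000 per library, with TMM factors) was 58.4 ± 6.34 in controls and 89.8 ± 15.2 in the other group (SD, n = 5 each), which edgeR's quasi-likelihood test called as higher (log2 fold change 0.62, SE 0.117, adjusted p of 0.0259). Leaving 1 library out ended that call in 7 of 10 cases. The count sums all exons and leaves unseen whether one of them is missing, so the text speaks of libraries labelled cKO, and every direction below depends on the label. Markers of the named tissue were present: in the mean over libraries, the hair cell gene Pou4f3 had 5.18 FPKM, the strial potassium channel subunit Kcne1 28.0 FPKM and the otic fibrocyte gene Coch 131 FPKM.

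As background, S1P arises from ceramide in 2 steps. Ceramidases such as acid ceramidase (Asah1) release sphingosine, and the sphingosine kinases Sphk1 and Sphk2 phosphorylate it. The phosphatases Sgpp1 and Sgpp2 return S1P to sphingosine in the endoplasmic reticulum, while the lyase Sgpl1 cleaves it for good. The transporter Spns2 carries S1P out of cells, where it acts on G protein-coupled receptors such as S1pr1, S1pr2 and S1pr3. In the inner ear, loss of Spns2 or S1pr2 is known to cause deafness with defects of the stria vascularis, the epithelium that secretes potassium into the endolymph.

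Of the 10 genes, only Sgpp2, which was chosen for its fall, separated the genotypes by range. Sgpp2 was lower in each of the 5 libraries labelled cKO than in any control. Its CPM in these libraries was 0.530 times that of controls. The CPM ranges of the other 9 members overlapped between groups, where 2.84% of all tested genes had ranges without overlap. None of the other 9 members was called by edgeR at an adjusted p under 0.05 over all 17937 genes tested, where 0.619% of genes were called, 0.546% as lower and 0.0725% as higher. None of the 9 had an unadjusted p under 0.05 either, where 9.65% of all tested genes did, and DESeq2 and limma-voom also called 0 of them, against 1.71% and 1.94% of all genes. The median log2 fold change of these 9 genes was 0.03, and that of all tested genes was -0.01.

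Sgpp2 (ENSMUSG00000032908) lies on chromosome 1 of GRCm38, from 78310345 to 78420289 on the plus strand, and its 5 merged exons measure 4002 bp. It had 21.1, 20.3, 22.2, 23.6 and 21.1 CPM in controls 1 to 5. The libraries labelled cKO had 11.99, 10.4, 14.4, 9.98 and 10.5 CPM in the same order. The lowest control thus lay above the highest library labelled cKO, which was cKO 3. Mean levels were 21.7 ± 1.27 CPM in controls and 11.5 ± 1.83 CPM in the others (SD over 5 libraries). The edgeR estimate of log2 fold change was -0.92, with an SE of 0.111. Over all tested genes, CPM ranges did not overlap in 2.84%, and 1.64% were without overlap and lower. The choice of Sgpp2 for its fall means that nothing is read from this. Behind these values stand 723 to 906 counts in each control and 363 to 581 in each of the others. The log2 fold change lay between -1.01 and -0.87 with 1 library left out, and at -0.73 on the log2(FPKM + 1) scale, which compresses low genes. Exons of Sgpp2 share 248 bp, or 6.20% of their length, with Farsb on the opposite strand, and the use of strand in counting is not given in the sources used here. Farsb, a subunit of phenylalanyl-tRNA synthetase, was not called by edgeR (log2 fold change -0.14, SE 0.113, adjusted p of 0.709).

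**Figure D1:**
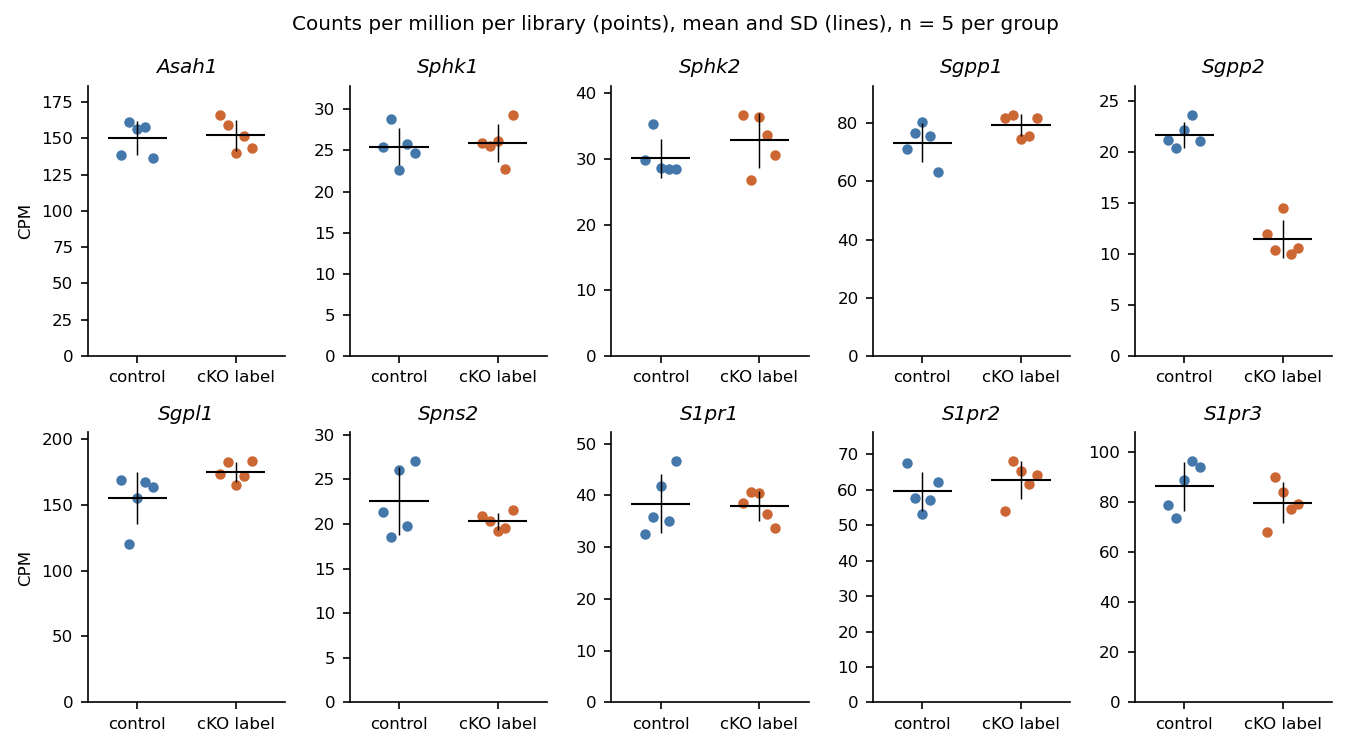
CPM (vertical axes from 0) of the 10 genes in each library, controls in blue and libraries labelled cKO in orange, with mean and SD as lines (n = 5 per group). The groups are apart in the Sgpp2 panel, with controls at 20.3 CPM or more and the others at 14.4 CPM or less, and they overlap in the other 9 panels.

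The related phosphatase Sgpp1 (chromosome 12, 75714249 to 75735729, minus strand) had 71.2, 76.5, 80.4, 75.5 and 63.1 CPM in controls 1 to 5 and 81.8, 82.8, 74.5, 75.8 and 81.9 CPM in the libraries labelled cKO. The groups overlapped, and edgeR did not call the gene (log2 fold change 0.11, 95% interval -0.05 to 0.28, adjusted p of 0.653). Its log2 fold change was 0.064 without control 5. Per length, Sgpp1 was the more abundant of the pair in every library, at 12.9 ± 1.17 FPKM in controls against 5.37 ± 0.342 FPKM for Sgpp2 (SD, n = 5). FPKM divides fragments by the length of the gene and by the library total. Sgpp2 made up 27.3% to 32.0% of the summed FPKM of Sgpp1 and Sgpp2 in controls and 15.0% to 21.5% in the libraries labelled cKO. The sum of both was 18.2 ± 1.34 FPKM in controls and 16.8 ± 0.604 FPKM in the other group (SD, n = 5 each), and these sums overlapped between groups, with controls from 16.3 to 19.7 and the others from 15.9 to 17.4. Sgpp1 was the larger part of the pair in both genotypes.

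The sequence upstream of Sgpp2 is shown because Esrrg encodes a DNA-binding receptor. A window of Spns2 is shown because it was the 1 member whose window held a longer form of the receptor's motif. Of the 10 members, 8 have a window of 250 bases before a RefSeq transcription start on GRCm38.p6, and Asah1 and S1pr1 have none. Estrogen-related receptors are known to bind an extended form, TNAAGGTCA, of the core motif AGGTCA that many nuclear receptors share. Each sequence reads 5′ to 3′ on the strand of its gene, and capitals mark AGGTCA or its complement.
Sgpp2, chr1:78310096-78310345, plus strand: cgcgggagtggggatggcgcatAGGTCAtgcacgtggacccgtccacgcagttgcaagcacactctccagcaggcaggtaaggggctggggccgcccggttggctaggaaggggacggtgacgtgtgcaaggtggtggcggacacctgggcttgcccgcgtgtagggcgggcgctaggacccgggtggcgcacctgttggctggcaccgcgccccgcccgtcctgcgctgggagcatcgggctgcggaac
Spns2, chr11:72475028-72475277, minus strand: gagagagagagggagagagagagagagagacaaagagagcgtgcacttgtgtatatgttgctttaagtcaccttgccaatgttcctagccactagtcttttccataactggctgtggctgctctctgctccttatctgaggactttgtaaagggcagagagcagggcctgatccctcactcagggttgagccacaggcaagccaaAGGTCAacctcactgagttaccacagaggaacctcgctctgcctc
Both strands were searched. In Sgpp2, AGGTCA stood 228 to 223 bases before the start, and neither AAGGTCA nor TNAAGGTCA was found. In Spns2, AAGGTCA, which contains the shorter AGGTCA, stood 46 to 40 bases before the start. That RefSeq start, at 72475027, lies inside the annotated gene, which begins at 72489904 on the minus strand. Sphk1 and S1pr2 held AGGTCA in at least 1 window, and no member held TNAAGGTCA. The Sphk1 windows with AGGTCA also lie inside its annotated gene. Among all 27025 genes with such windows, 15.8% held AGGTCA, 4.70% held AAGGTCA and 1.30% held TNAAGGTCA. These matches describe letters in short windows, and no binding was measured.

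The enzymes that supply sphingosine and S1P showed overlapping groups. Asah1 (chromosome 8, 41340197 to 41374773, minus strand) was the most abundant member per length, and had 139, 161, 156, 158 and 136 CPM in controls and 166, 159, 140.0, 152 and 144 CPM in the libraries labelled cKO. Its log2 fold change of 0.02 had a 95% interval of -0.15 to 0.19 and an edgeR adjusted p of 0.947. Its sign turned when control 1, control 5 or cKO 1 was left out, so no direction can be given.

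Sphk1 (chromosome 11, 116530925 to 116536674, plus strand) had 25.4, 28.9, 22.6, 25.8 and 24.7 CPM in controls and 25.9, 25.6, 26.1, 22.8 and 29.3 CPM in the libraries labelled cKO. The log2 fold change of Sphk1 was 0.03 (95% interval -0.17 to 0.23, edgeR adjusted p of 0.942), and its sign turned without control 3 or without cKO 5. Sphk2 (chromosome 7, 45709467 to 45718002, minus strand) had 29.9, 35.3, 28.6, 28.4 and 28.4 CPM in controls and 36.7, 26.8, 36.3, 33.7 and 30.7 CPM in the libraries labelled cKO. Control 2 was the high control here, and cKO 2 lay below all controls while cKO 1 and cKO 3 lay above them. Sphk2 had a log2 fold change of 0.13 (95% interval -0.10 to 0.35, edgeR adjusted p of 0.71), and 0.18 without control 2. Exons of Sphk2 share 539 bp (12.96% of their length) with Dbp and 373 bp (8.97%) with Rpl18, and those of Sphk1 share 192 bp with Gm29292, all on the opposite strand. Sphk1 took 40.8% to 44.1% of the summed FPKM of the kinases in controls and 37.0% to 45.4% in the libraries labelled cKO. This share spread more widely in the libraries labelled cKO, where cKO 2 and cKO 5 both stood at 45.4% and the other 3 at 38.5% or less.

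Sgpl1, the lyase (chromosome 10, 61098642 to 61147703, minus strand), was not called, and its log2 fold change depended on control 2. It had 169, 120.3, 155, 167 and 164 CPM in controls and 173, 182, 165, 172 and 183 CPM in the libraries labelled cKO. The low value belongs to control 2, and the other controls reached into the range of the second group. For Sgpl1 edgeR gave a log2 fold change of 0.18 (95% interval -0.02 to 0.37, adjusted p of 0.572), and 0.087 without control 2.

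**Figure D2:**
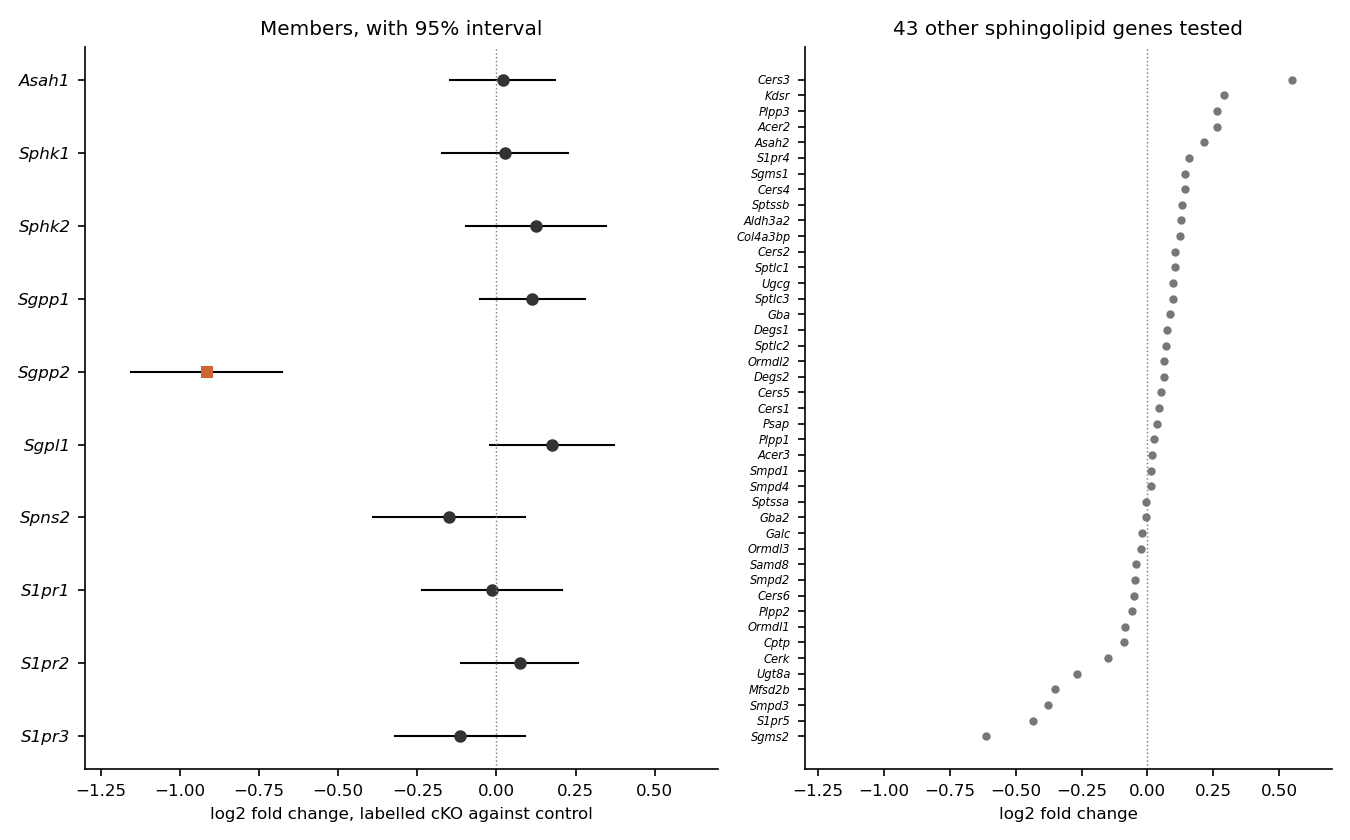
Log2 fold changes of the libraries labelled cKO against controls from edgeR (horizontal axes), with 95% intervals for the 10 members on the left and without intervals for 43 other sphingolipid genes on the right. Sgpp2 (square) lies at -0.92, and its interval carries no test because the gene was chosen for its fall. The intervals of the other members all include 0 and lie between -0.39 and 0.37.

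Spns2, the exporter (chromosome 11, 72451638 to 72489904, minus strand), varied among the controls and little in the other group. It had 21.3, 18.5, 26.1, 19.8 and 27.0 CPM in controls and 20.9, 20.4, 19.2, 19.6 and 21.5 CPM in the libraries labelled cKO. Controls 3 and 5 were the high libraries, and the second group lay inside the range of the controls. The coefficient of variation was 16.9% in controls and 4.67% in the libraries labelled cKO. Spns2 was not called by edgeR (log2 fold change -0.15, 95% interval -0.39 to 0.09, adjusted p of 0.676), and the log2 fold change was -0.22 without control 2 and -0.077 without control 5. Exons of Spns2 share 131 bp, or 3.21% of their length, with Mybbp1a on the opposite strand.

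Among the receptors, S1pr1 (chromosome 3, 115710433 to 115715072, minus strand), known for its part in endothelial and lymphocyte biology, had 32.6, 35.9, 41.8, 35.1 and 46.5 CPM in controls and 38.5, 40.7, 40.4, 36.4 and 33.7 CPM in the libraries labelled cKO. For S1pr1 the log2 fold change was -0.01 (95% interval -0.24 to 0.21, edgeR adjusted p of 0.970), and leaving out 1 library turned it positive in 4 of 10 cases. Controls 3 and 5 were the high controls for S1pr1 as they were for Spns2.

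S1pr2 (chromosome 9, 20962361 to 20976781, minus strand), the receptor that hearing requires, had 67.5, 57.7, 53.3, 57.1 and 62.1 CPM in controls and 53.9, 68.0, 65.4, 61.8 and 64.2 CPM in the libraries labelled cKO. Its log2 fold change was 0.07 (95% interval -0.11 to 0.26, edgeR adjusted p of 0.802), and it ran from 0.032 without control 3 to 0.12 without control 1. S1pr3 (chromosome 13, 51408639 to 51422797, plus strand), a receptor known from vascular smooth muscle, had 78.9, 73.5, 89.0, 96.3 and 94.3 CPM in controls and 67.9, 90.1, 84.2, 77.3 and 79.4 CPM in the libraries labelled cKO. The log2 fold change of S1pr3 was -0.11 (95% interval -0.32 to 0.09, edgeR adjusted p of 0.716), and the groups overlapped. It ran from -0.18 without control 2 to -0.065 without cKO 1.

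Per length, S1pr3 was the leading receptor RNA, with 44.0% to 53.6% of the summed FPKM of the 3 receptors over the 10 libraries. S1pr1 took 28.6% to 36.5% and S1pr2 16.6% to 23.0%. The order S1pr3, S1pr1, S1pr2 held in every library. The remaining receptors of the family, S1pr4 and S1pr5, were near the lower end of detection at 0.275 and 0.195 FPKM in the mean over libraries.

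**Figure D3:**
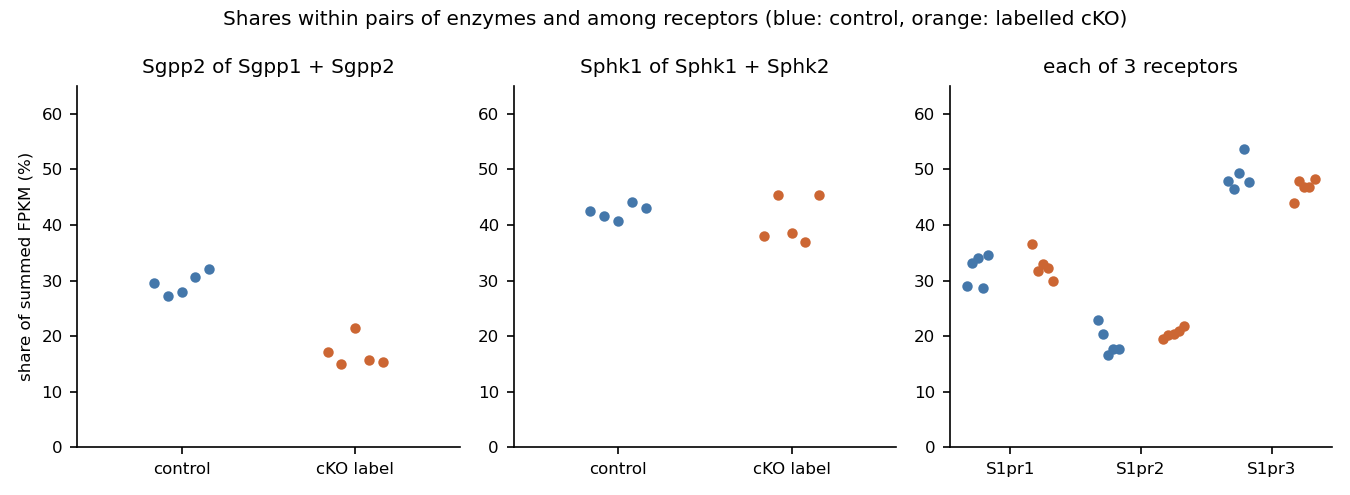
Share of summed FPKM in percent (vertical axes from 0) taken by Sgpp2 within the phosphatase pair, by Sphk1 within the kinase pair, and by each of 3 receptors, 1 point per library. The Sgpp2 share lies at 27.3% or more in controls (blue) and at 21.5% or less in the libraries labelled cKO (orange), and the other shares overlap between groups.

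Across the whole pathway, the level per length fell from Asah1 (43.9 ± 3.34 FPKM in controls), Sgpl1 (25.0 ± 3.36) and S1pr3 (19.2 ± 2.26) through Sgpp1 (12.9 ± 1.17) and S1pr1 (12.5 ± 1.84) to S1pr2 (7.41 ± 0.690) and Sphk2 (7.18 ± 0.660), and then to Spns2 (5.48 ± 0.935), Sgpp2 (5.37 ± 0.342) and Sphk1 (5.29 ± 0.441; SD, n = 5 each). Asah1, Sgpl1 and S1pr3 kept their places above the next gene in all 10 libraries. Sgpp1 and S1pr1 were neighbours whose ranges overlapped, with Sgpp1 above S1pr1 in 4 of 5 controls and 4 of 5 libraries labelled cKO. S1pr2 and Sphk2 did not differ beyond their spread, and neither did Spns2, Sgpp2 and Sphk1 in controls. In the libraries labelled cKO, Sgpp2 was the least abundant member, at 2.85 ± 0.458 FPKM, below Spns2 and Sphk1 in all 5. The members cover the middle to upper range of the tissue: Sgpp2 stood at percentile 48.3 of mean FPKM among tested genes and Asah1 at percentile 94.4.

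**Figure D4:**
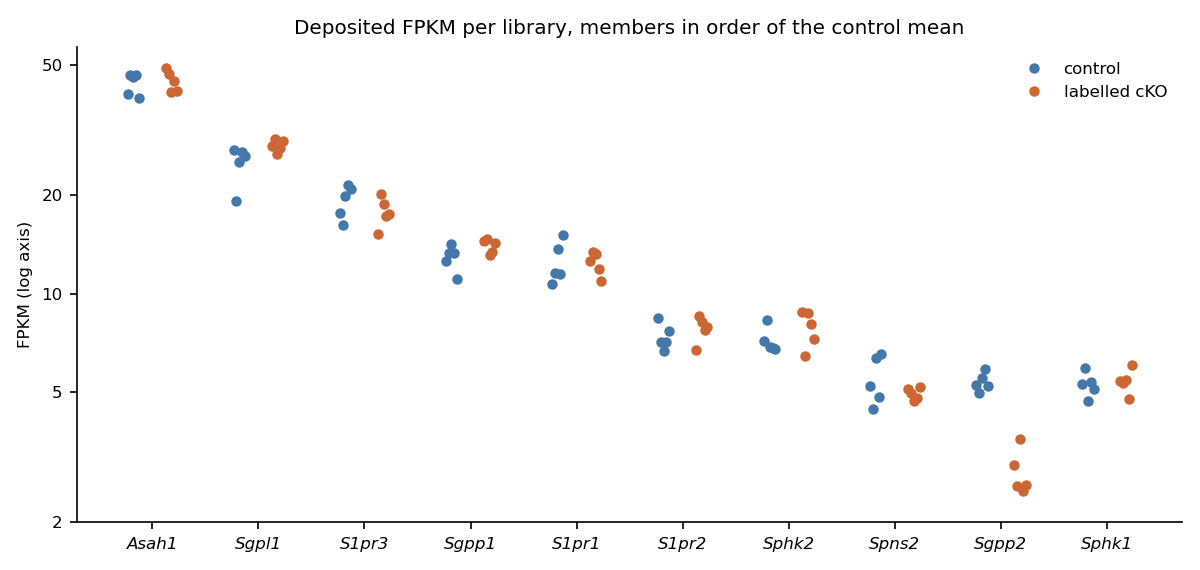
Deposited FPKM of the 10 genes (log axis), in order of the control mean, 1 point per library in each genotype. Asah1 leads at 43.9 FPKM in controls, and Sgpp2 moves from the level of Spns2 and Sphk1 in controls (blue) to the lowest place at 2.85 FPKM in the libraries labelled cKO (orange).

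The spread between animals was read from the SD of log2 CPM within genotypes. Its median was 0.150 over the 9 tested members, 0.151 over the 43 other sphingolipid genes tested and 0.214 over all tested genes. All tested genes include some with far fewer counts than the members, so these medians are not matched for level. The 95% intervals of these 9 genes reached from -0.39 (Spns2) to 0.37 (Sgpl1).

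The rest of sphingolipid handling was read from a list of 46 genes for ceramide synthesis, sphingomyelin and glycolipid turnover, further ceramidases, lipid phosphatases and S1P carriers. Of these, 45 were in the table and 43 were tested, 16 lower and 27 higher, with a median log2 fold change of 0.04 (0.020 without control 5 and 0.074 without control 2) against -0.01 over all tested genes. edgeR and DESeq2 called 0 of the 43, where they called 0.619% and 1.71% of all tested genes. limma-voom called 1, where it called 1.94% of all tested genes. In edgeR, 3 genes (6.98%) had an unadjusted p under 0.05, where 9.65% of all tested genes did. CPM ranges did not overlap for 3 of the 43 genes, where 2.84% of all tested genes did not. The ceramidase gene Acer1 had 0 counts in every library.

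The smallest p-values among the higher genes of that list belonged to Plpp3, Kdsr and Cers4. Plpp3, a lipid phosphatase of the cell surface that also acts on S1P, had 465, 429, 493, 492 and 475 CPM in controls and 635, 598, 501, 495 and 598 CPM in the libraries labelled cKO. No library of one group entered the range of the other, and edgeR did not call the gene (log2 fold change 0.26, SE 0.0891, adjusted p of 0.327). Kdsr, a reductase of ceramide synthesis, was not called by edgeR (log2 fold change 0.29, SE 0.106, adjusted p of 0.384) but was called by limma-voom at an adjusted p of 0.0441. The ceramide synthase Cers4 rated an edgeR adjusted p of 0.546 at a log2 fold change of 0.14 (SE 0.0695). Among the lower genes, Ugt8a, which makes the galactolipids of myelin, had 16.3 to 18.4 CPM in controls and 11.8 to 16.2 CPM in the libraries labelled cKO, without overlap. For Ugt8a the edgeR adjusted p was 0.391 at a log2 fold change of -0.27 (SE 0.0983). The ceramide kinase gene Cerk (-0.15, SE 0.0816) and Mfsd2b, the S1P exporter of red cells and platelets (-0.35, SE 0.257), followed with edgeR adjusted p of 0.592 and 0.674.

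Beside Ugt8a, the list of 10 Schwann cell and satellite glia genes was 8 lower and 2 higher with a median log2 fold change of -0.36. Of these 10, edgeR called 0, DESeq2 called 2 and 5 had an unadjusted p under 0.05. Over all tested genes, edgeR called 0.619%, DESeq2 called 1.71%, and 9.65% had such a p. The summed FPKM of the glia list was 494 to 635 in controls and 370.3 to 528 in the libraries labelled cKO. Beside Mfsd2b, all 8 tested erythroid genes were lower. Of these 8, edgeR called 1 as lower (Tfrc), where 0.546% of all tested genes were. The median log2 fold change of the 8 genes was -0.74. That median was -0.49 without control 2 and -0.39 with limma-voom, and 1 of the 8 genes was higher with limma-voom and without control 1, control 5 or cKO 4. Their summed FPKM was 919 to 3739 in controls and 572 to 1652 in the libraries labelled cKO. The part of either list in those values was not tested. Relatives of the S1P receptors, the lysophosphatidic acid receptors and the enzyme Enpp2 that makes their ligand, had 0 of 7 genes called and a median log2 fold change of -0.04. At an unadjusted p under 0.05 there were 0 genes, where 9.65% of all tested genes were.

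None of the markers of the stria vascularis was called as lower by edgeR, where 0.546% of all tested genes were. At such a share, 0 calls in lists this short say little. Of 16 genes of marginal cells, the potassium-secreting epithelial layer, 15 had a positive log2 fold change and 1 a negative one, with a median of 0.22 (0.13 with limma-voom). edgeR, DESeq2 and limma-voom called 0 of them, where they called 0.619%, 1.71% and 1.94% of all tested genes. An unadjusted p under 0.05 was found for 6 (37.5%), where 9.65% of all tested genes had one. The summed FPKM of this list was 551, 487, 545, 590.1 and 463 in controls and 588, 609, 591, 579 and 582 in the libraries labelled cKO. Its abundant genes included the cotransporter Slc12a2 and the sodium pump subunit Atp1b1, with log2 fold changes of 0.18 and -0.14 and edgeR adjusted p of 0.527 and 0.651. The 7 basal cell genes were 6 higher and 1 lower with a median of 0.20 (0.12 without cKO 1). The 12 intermediate cell and melanocyte genes were 10 higher and 2 lower with a median of 0.14 (0.082 with limma-voom, 0.094 without control 2 and 0.090 without control 5). In these lists 0 genes were called by edgeR, DESeq2 or limma-voom. An unadjusted p under 0.05 was found for 3 (42.9%) and 1 (8.33%) genes, where 9.65% of all tested genes had one. The most abundant basal cell genes were Gjb2, Cldn11 and Tjp1 (218, 204 and 44.9 FPKM in the mean over libraries) and the most abundant intermediate cell genes Cd63, Pmel and Dct (75.9, 30.8 and 28.3 FPKM). Summed FPKM of the basal cell list was 455 to 541 in controls and 570.1 to 627 in the libraries labelled cKO, without overlap. Median log2 fold changes of these 3 lists remained positive in all 10 fits with 1 library left out, and the marginal cell median was 0.16 both without control 2 and without control 5. None of the 35 markers was at 0 in all libraries. The part of strial content in the Sgpp2 values was not tested.

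The genes whose pattern over the 10 libraries was most like that of Sgpp2 were Frmd3, Arpp21, Slc17a7, Sez6 and Stac2, with Pearson correlations of log2 CPM of 0.985, 0.983, 0.982, 0.970 and 0.969. Because Sgpp2 was chosen for its fall, such a ranking favours genes that differ in the same way between genotypes. All 5 were called as lower, with log2 fold changes of -0.50, -1.53, -1.13, -1.14 and -1.35 and edgeR adjusted p of at most 0.0230. Within genotypes, on deviations from the genotype mean, the correlations with Sgpp2 were 0.949 for Frmd3, 0.837 for Slc17a7, 0.799 for Arpp21, 0.680 for Sez6 and 0.640 for Stac2. The correlations that picked these genes include the same deviations, so high values here are favoured by the choice as well. Frmd3, which encodes a FERM domain protein, had 39.6, 38.9, 42.5, 42.9 and 39.1 CPM in controls and 30.2, 26.4, 33.8, 24.7 and 28.4 CPM in the libraries labelled cKO. It ranked all 10 libraries in the order of Sgpp2 (Spearman's rho of 1.00), which the same choice favours. Leaving 1 library out ended the call of Frmd3 in 6 of 10 cases, and the highest adjusted p from edgeR among them was 0.0906, without control 3.

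Slc17a7 encodes a vesicular glutamate transporter, Arpp21 a phosphoprotein of neurons, Sez6 a neuronal membrane protein and Stac2 an adaptor of calcium channels. Slc17a7 had 19.7, 20.5, 25.1, 27.0 and 20.1 CPM in controls and 11.1, 9.95, 13.0, 9.32 and 8.12 CPM in the libraries labelled cKO. Control 4 was the highest control and cKO 3 the highest library labelled cKO for Sgpp2 and Slc17a7 alike. Slc17a7 was picked by its correlation with Sgpp2 over these libraries, so such a shared order is favoured by the choice. In the list of 11 neuronal genes, 8 were lower and 3 higher, the median log2 fold change was -0.25, and Slc17a7 and Elavl4, an RNA-binding protein of neurons, were called as lower by edgeR, 2 of 11 where 0.546% of all tested genes were. At an unadjusted p under 0.05 there were 6 of the 11, where 9.65% of all tested genes were. CPM ranges did not overlap for 3, where 2.84% of all tested genes did not. limma-voom called 3, where it called 1.94% of all tested genes. The most abundant genes of that list, Tubb3, Nefm and Nefl, stood at 70.3, 61.1 and 48.9 FPKM in the mean over libraries and were not called. Its summed FPKM overlapped, at 275 to 309 in controls and 173 to 333 in the libraries labelled cKO. The part of neuronal content in the Sgpp2 values was not tested.

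**Figure D5:**
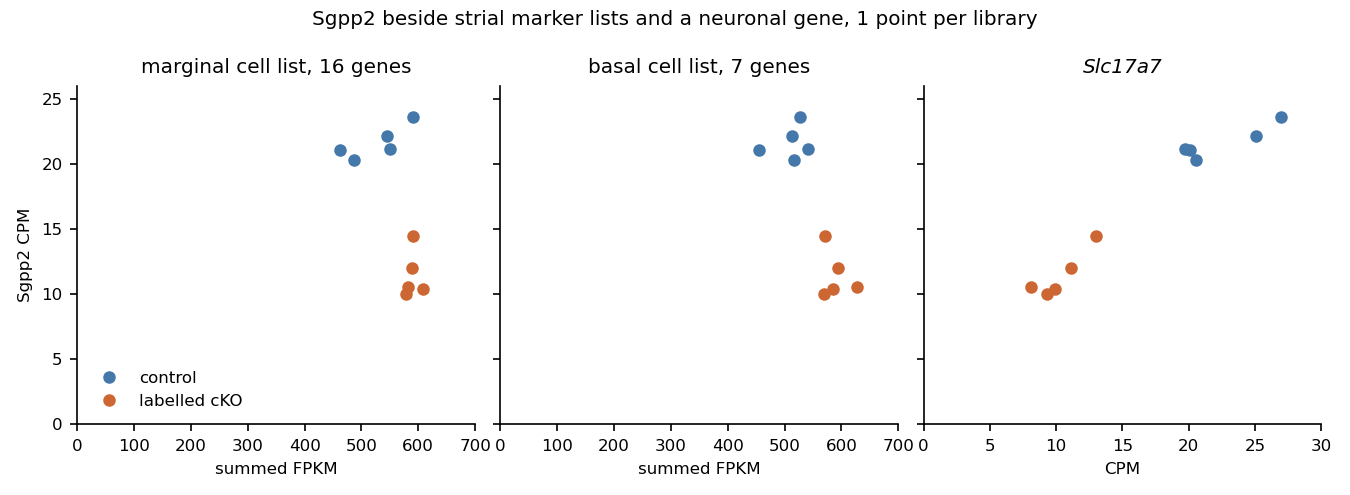
Sgpp2 in CPM (vertical axis) against summed FPKM of the marginal cell list and of the basal cell list and against CPM of Slc17a7 (horizontal axes), 1 point per library, controls in blue and libraries labelled cKO in orange. Libraries with low Sgpp2 have marginal list sums of 579 to 609, against 463 to 590.1 in controls. Slc17a7 is drawn for its likeness to Sgpp2, so low values of both genes in the same 5 libraries follow from that choice. Summed FPKM of the 11 neuronal genes, not drawn, overlaps between groups, at 275 to 309 in controls and 173 to 333 in the libraries labelled cKO.

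S1pr1 followed other genes. The 5 most similar patterns over the 10 libraries were those of Col1a1 (Pearson correlation 0.935), the bone and cartilage phosphatase gene Alpl (0.931), Edil3 (0.900), the collagen gene Col5a2 (0.899) and Entpd3 (0.885), and none of these 5 was called between genotypes. Col1a1, a chain of type I collagen, had 840.1, 972, 1349.5, 919 and 1886 CPM in controls and 1148, 1349, 1302, 1283 and 1029 CPM in the libraries labelled cKO. Control 5 was highest for both S1pr1 and Col1a1, and without it the correlation was 0.883. Set beside S1pr1, the summed FPKM of 14 endothelial genes was 156 to 195 in controls and 172 to 180.5 in the libraries labelled cKO. For these genes the median log2 fold change over the list was 0.01 (from -0.035 without control 1 to 0.049 without cKO 5). edgeR called 0 of the 14 genes, where it called 0.619% of all tested genes. An unadjusted p under 0.05 was found for 1 (7.14%), where 9.65% of all tested genes had one. The most abundant endothelial genes were Cldn5, Cdh5 and Emcn at 39.7, 29.5 and 24.0 FPKM in the mean over libraries. The 9 tested genes of pericytes and vascular smooth muscle, set beside S1pr3, showed a median log2 fold change of 0.04 (0.0034 without control 1 and 0.16 without control 5). edgeR called 0 of these 9 genes, and 1 (11.1%) had an unadjusted p under 0.05, where 9.65% of all tested genes did. The most abundant of that list were Rgs5 (42.8 FPKM), Pdgfrb (34.6 FPKM) and Notch3 (15.1 FPKM).

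The patterns most like that of S1pr2 were those of Klf16 (Pearson correlation 0.934), Tent5c (0.908), Gm43714 (0.881), Mob3c (0.874) and Plekha3 (0.873). For Spns2 they were Kank4os (0.933), Inpp4a (0.925), 9130024F11Rik (0.903), 4930562C15Rik (0.900) and Gm38391 (0.887). None of these 10 genes was called. For Spns2 the order rests in part on control 5, without which the correlation with Inpp4a was 0.866 and that with Gm38391 0.811. The points of all these correlations are whole libraries, which share tissue makeup and scaling. Each set of similar genes was picked as the highest over all tested genes, so high correlations are favoured by the choice.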

How the data were processed

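The text rests on 10 libraries of 1 animal each, 5 per genotype, and replicate numbers come from the titles. The authors deposited whole-number counts per Ensembl gene and FPKM values. The submitters' processing notes name STAR 2.5, HTSeq 0.61, DESeq2 2 and the build mm10, while neither the gene models nor any strand setting is given in the sources used here. Dividing the deposited counts by a gene length and a library factor returned the deposited FPKM, and 95.3% of 13928 well-counted genes matched the merged exon length in GENCODE M21 on GRCm38 within 0.1%. Symbols, positions and exon overlaps were taken from that annotation.

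Counts were filtered by filterByExpr (minimum 10), scaled by TMM and compared with edgeR 4.0.16, using the quasi-likelihood F-test with robust estimation, the genotype as the only term and Benjamini-Hochberg adjustment over all 17937 tested genes. Standard errors were derived from the F statistic and 95% intervals from the t distribution of the fit. Similar genes were the 5 with the highest Pearson correlation of log2 CPM (prior count 2). DESeq2 1.42.0, limma 3.58.1 (voom with quality weights, and log2 FPKM plus 1 or 0.1), other scalings and filters, a replicate block and each library left out were alternatives. The fit was tested on simulated data. Named genes were the members, Esrrg, the 3 genes each way with the smallest p in the sphingolipid list, the called and 3 most abundant genes of marker lists set beside a member, and the similar genes; 1 gene that this rule names is not reported here. Single tissue markers, overlapping neighbours, Acer1, S1pr4 and S1pr5 were named after their values were seen. The members and lists were chosen with earlier results of these data known.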

Additional observations from a re-analysis of the deposited data

Results flagged for a closer look

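Each of 32 measures (the CPM of the members and of Esrrg, the shares and sums of members, and the summed FPKM of the marker lists) was screened within each genotype with Dixon's test, which asks whether 1 library lies far from the rest. There were 3 such cases in 64 groups, where chance gives about 1 in 20 groups, or 3.2. All 3 fell on control 2. Its Sphk2 level was 35.3 CPM, where the other controls had 28.4 to 29.9 CPM. Its Sgpl1 level was 120.3 CPM, where the other controls had 155 to 169 CPM. Its summed FPKM of the 8 mesenchyme genes was 4088, where the other controls had 2986 to 3249, and its FPKM total over all genes was also the highest of the controls. Otor alone had 2401 FPKM in the mean over libraries, so the mesenchyme sum rests largely on that gene.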

How the results depend on the processing

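Over all genes, the number called was 111 in edgeR's test, 307 with DESeq2, 348 with limma-voom and between 52 and 197 with 1 library left out. It was 197 without control 2 and 52 without control 3. It was also over 1.5 times lower without control 1 (62), control 4 (69), control 5 (73), cKO 2 (62), cKO 4 (67) and cKO 5 (55). None of the 9 members other than Sgpp2 was called by any alternative. Among the other sphingolipid genes, limma-voom called 1 and the other alternatives 0. With 1 library left out, log2 fold changes ran from -0.021 to 0.070 for Sphk1, from -0.069 to 0.065 for S1pr1 and from -0.017 to 0.048 for Asah1, so these 3 changed sign. The other 7 members kept their sign under every alternative. Without cKO 2, Esrrg had its highest edgeR adjusted p, 0.0992.

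Same-numbered libraries of the groups deviated together only weakly, with correlations across genes of 0.0211 to 0.179, and 3 of 5 controls correlated best with their own number. The numbers were therefore not used as pairs. With the replicate block, 101 genes were called, Esrrg had an adjusted p of 0.0562, and Frmd3, Arpp21, Slc17a7, Sez6, Stac2 and Elavl4 kept their calls. Each member had 363 counts or more in every library.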
